A study of Rattus norvegicus with 8 samples.

Results

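The insulin-like growth factor (IGF) system was described across the kidney cortex of male and female rats through 10 genes: the type 1 IGF receptor Igf1r, the ligand Igf2 and its receptor Igf2r, the IGF-binding proteins Igfbp1 to Igfbp6, and the related Igfbpl1. They are 10 of the 14737 genes that could be named on the array, and they were chosen as the non-control probes whose RefSeq accession belongs to one of these genes. The 10 genes had 11 of the 30367 non-control probes; Igfbp2 had 2 probes and the other 9 genes 1 each. All 11 probes were well above background on all 8 arrays. The study compared total RNA from cortical kidney slices of 4 female and 4 male adult rats of the strain RCCHanTMWIST on one-colour (Cy3) Agilent arrays, 1 sample per array, to find transcripts that differ between the sexes. Neither sex received a treatment, and the labels give no age beyond adult, no cycle stage and no hormone level. Sex was the single recorded factor separating the groups, and unrecorded differences between them cannot be told apart from it. A cortical slice holds every cell type of the cortex, and fewer cells of a type and less RNA per cell cannot be told apart in it.

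IGF-I and IGF-II are peptide hormones that signal through the tyrosine kinase receptor encoded by Igf1r, whereas the Igf2r product, also the cation-independent mannose 6-phosphate receptor, takes up IGF-II and lysosomal enzymes without a kinase of its own. The classical binding proteins carry the IGFs in blood and tissue fluid and set how much ligand reaches the receptors, with IGFBP-6 preferring IGF-II. Proteases and their inhibitors in turn control the binding proteins. In the kidney, growth hormone and IGF-I are known to influence filtration, tubular growth and phosphate handling. The Igfbpl1 product shares the domain layout of the IGFBP7 family and is far less studied.

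Each value is the log2 signal less that of the array's own 75th percentile of spots, so that a value of 0 equals that percentile, and differences are male minus female with their standard error (SE) from limma, a linear model fitted over all tested probes. Because each probe has its own brightness, no level is set against that of another probe. All 8 proximal tubule markers examined, among them Lrp2 and Cubn (endocytic receptors of this segment), were well above background on all 8 arrays. Their summed signal was 198 to 211 times the 75th percentile in females and 207 to 219 times in males. Single markers of this list differed between the sexes in both directions. Cubn was higher in females (-0.59, limma adjusted p = 0.00452) and Slc22a6 higher in males (0.38, limma adjusted p = 0.0153). Arrays of one sex correlated at 0.992 to 0.995 and arrays of different sex at 0.983 to 0.991 over probes. The 75th percentiles ran from 5025 to 6547 intensity units.

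Of the 11 probes, 1 (9.09%) passed an adjusted p of 0.05, that of Igfbpl1, and it was higher in females and past a 2-fold difference. Among all 23425 probes tested, 8.06% passed the adjusted p (4.67% in the direction of females), and 1.89% passed both limits (1.09% in the direction of females). By limma without adjustment, 3 of the 11 probes (27.3%) reached the same limit, against 25.6% of all probes. The values of the sexes did not overlap for 2 of the 11 probes, 18.2%, against 18.5% of all probes. The shares past the adjusted p in either direction, unadjusted and by overlap all stood near those over the whole array. The counts past the adjusted p, with or without the 2-fold limit, rest on the 1 probe of Igfbpl1. The median difference over the 11 probes was -0.05, beside -0.04 over all tested probes.

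**Figure D1:**
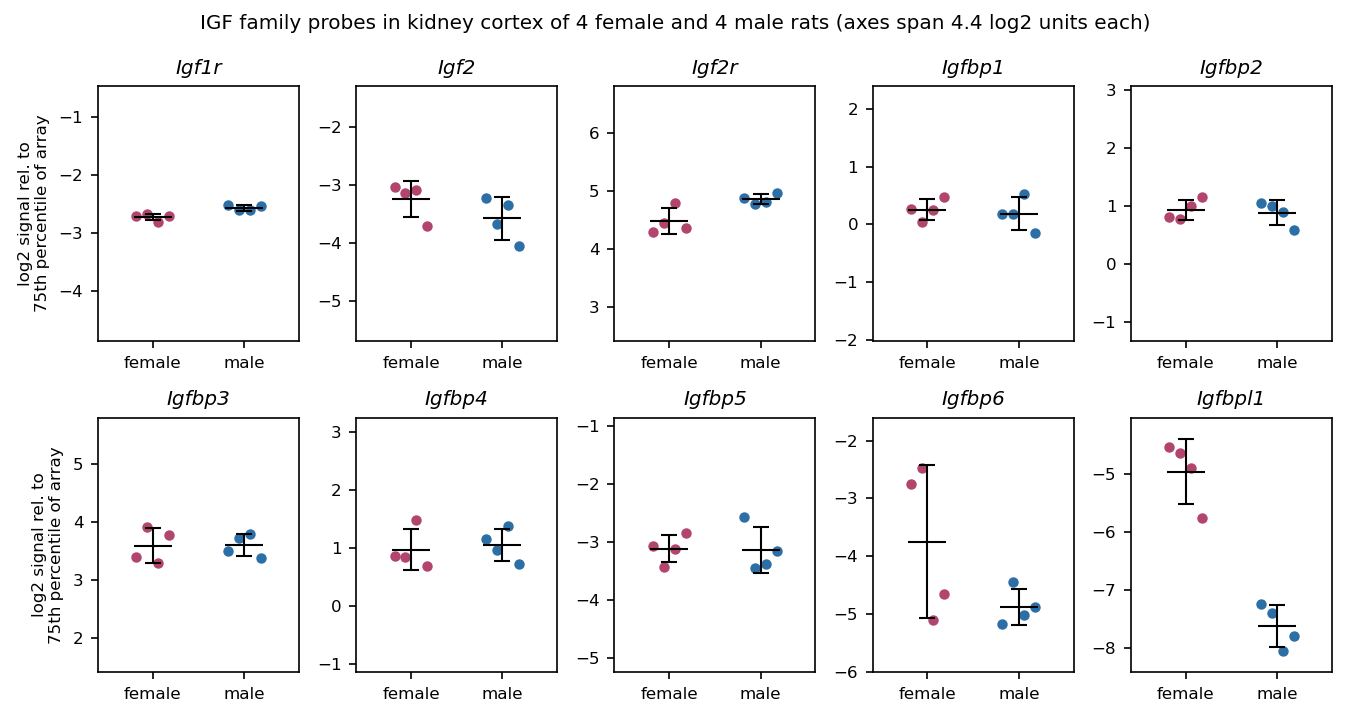
Log2 signal relative to the 75th percentile of the array (vertical axis) for the leading probe of each of the 10 genes in 4 female and 4 male rats (points), with mean and SD (black); each panel spans the same number of log2 units but is placed at its own level. Igfbpl1 separates the sexes, with a difference of -2.66, and Igfbp6 splits the females into a high and a low pair.

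**Figure D2:**
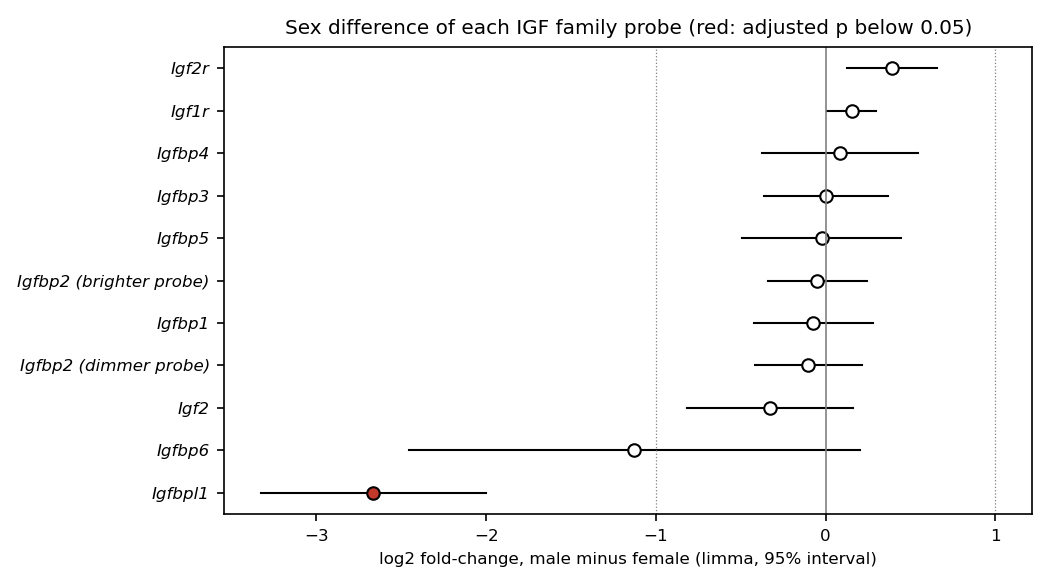
Male minus female difference in log2 signal (horizontal axis) with its 95% interval from limma for the 11 IGF family probes, the filled red point being the one past an adjusted p of 0.05. The Igfbpl1 interval runs from -3.326 to -2.002, the Igfbp6 interval is wide, and the intervals of Igfbp1 to Igfbp5 all contain 0.

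Igfbpl1 encodes a secreted protein with an IGFBP-type amino-terminal domain. Its log2 values were -4.54, -4.65, -4.90 and -5.77 in the females and -7.25, -7.40, -8.05 and -7.81 in the males. Every female lay above every male, also female 4, the lowest of its sex. As intensities, the females gave 242, 201, 186 and 109 and the males 43.0, 34.5, 24.2 and 28.8. The difference was -2.66 (SE 0.289, n = 4 per sex, limma adjusted p = 0.00193), a 6.34-fold higher level in females with a 95% interval of -3.326 to -2.002 on the log2 scale. The exact two-sided permutation test gave p = 0.0286, which is the smallest that 4 against 4 samples allow. Where the background was instead modelled with normexp, the difference was -1.74, or 3.33-fold, at an adjusted p of 0.00152 in limma.

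The male values were dim but measured. The dimmest probe values that were still well above background on the 4 male arrays were -8.43, -7.90, -8.58 and -8.60. The Igfbpl1 probe was itself well above background on each of these arrays, so it could not lie below those values. It was spotted at 2 places on every array, and the repeat spots differed by a median of 0.11 and at most by 0.69. One slide carried all 8 arrays in 2 rows, each row split evenly between the sexes, and the Igfbpl1 difference was -2.19 within the first row and -3.14 within the second.

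**Figure D3:**
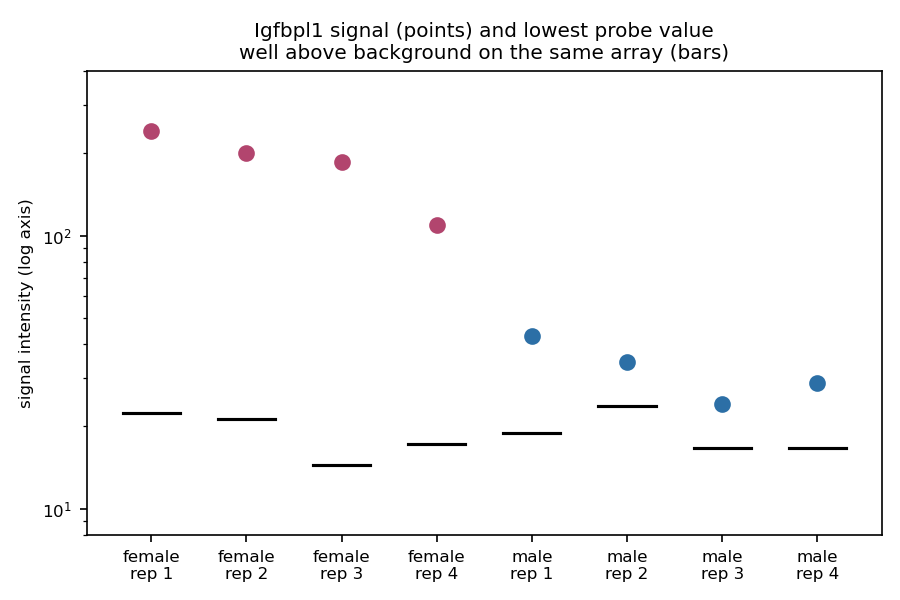
Igfbpl1 signal intensity (log axis) on the 8 arrays, points for females (red) and males (blue), with a bar at the dimmest probe value well above background on the same array. The females sit between 109 and 242 and the males between 24.2 and 43.0. The probe was well above background on every array, so no point could lie below its bar.

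Some nephron markers also separated the sexes. The summed signal of 4 markers of proximal tubule segment 3 was 19.6 to 44.8 times the 75th percentile in females and 13.0 to 19.4 times in males, with 1 marker passing in each direction. Slc22a7 was higher in females (-5.12) and Agt higher in males (3.12), whereas Slc7a13 (-0.90) and Slc5a1 (-0.42) did not pass. The sum thus joins markers that moved in opposite directions, and it is no measure of how much of this segment a slice held. For the thick ascending limb (3 of 4 markers had a named probe) the sum was 57.7 to 65.3 in females and 47.5 to 55.3 in males, and for podocytes (5 markers) it was 12.2 to 13.0 and 10.5 to 11.0. In both lists 1 marker passed, higher in females, and all of these markers were well above background on all 8 arrays. The part of these markers in the Igfbpl1 difference was not tested. Sums over the endothelium, mesangium with smooth muscle and fibroblast, collecting duct, immune cell and blood lists overlapped between the sexes. Of 4 adrenal cortex markers, Cyp11b1 and Star were well above background on no array, Cyp11b2 on 2 arrays and Cyp17a1 on all 8. Of 4 liver markers, Apoa1 and Tat were so on no array, Alb on 7 and Apob on all 8, and the sums of both lists overlapped between the sexes.

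The 250 bases before the annotated Igfbpl1 start are shown because this is the member whose level differed. They lie on the minus strand of chromosome 5 in RefSeq's annotation of rat build GRCr8, at chr5:64887462-64887711, with a GC content of 44.4% and 5 CpG dinucleotides, where the Igf1r window holds 45 at 79.6% GC.
Igfbpl1: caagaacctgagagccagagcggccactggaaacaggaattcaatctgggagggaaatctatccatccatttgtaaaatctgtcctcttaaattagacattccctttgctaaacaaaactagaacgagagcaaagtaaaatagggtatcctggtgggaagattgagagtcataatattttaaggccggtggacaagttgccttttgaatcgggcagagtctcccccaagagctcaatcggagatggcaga
Short motifs were searched on both strands of the windows of all 10 genes, and no match overlapped another. TTCNNNGAA, the GAS element bound by STAT5 after growth hormone, was in none of the 10, and in 7.67% of 33469 rat promoter windows of the same length. TATAAA, the TATA box, was found in the window of Igfbp4 alone and in 12.9% of all windows. CAAAACAA, the forkhead insulin response sequence described for the Igfbp1 promoter, was in the window of Igfbp1 and in 1.94% of all windows.

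The named probes with the profiles nearest to Igfbpl1 over the 8 arrays were found by the root mean square of the differences after each probe was centred on its own mean. They were Pstpip1 (an adaptor of the cytoskeleton in blood cells) at 0.292, Smoc2 (a matrix-associated calcium-binding protein) at 0.320 and Slc22a24 (a transporter of the organic anion family) at 0.326. Pstpip1 read -2.37, -3.18, -3.43 and -3.93 in females and -5.78, -5.69, -5.80 and -5.91 in males. These probes were picked for nearness to Igfbpl1, so that a like pattern over the rats, with a gap between the sexes, follows from the choice. In Pstpip1, as in Igfbpl1, female 1 was the highest and female 4 the lowest of its sex. In Slc22a24 female 2 (2.79) lay above female 1 (2.46).

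Among the receptors, Igf2r gave 4.30, 4.46, 4.81 and 4.36 in the females and 4.89, 4.79, 4.82 and 4.98 in the males. Females 1, 2 and 4 lay below all males, and female 3 lay just above male 2. The difference was 0.39 (SE 0.116, 95% interval 0.12 to 0.65), or 1.31-fold, with a limma adjusted p of 0.0787 and an exact permutation p of 0.0571, so that it did not pass. It was 0.35 within the first slide row and 0.43 within the second. The call turned with the processing: the adjusted p from limma was 0.0378 after quantile normalization (difference 0.48), 0.0306 on the authors' own log2 values (0.50), 0.0383 after normexp (0.41), 0.0424 with a trended and robust prior, and 0.0212 without female 3 (0.50).

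Igf1r, the kinase receptor for both IGFs, was measured by a probe spotted 10 times on each array. It read -2.70, -2.67, -2.81 and -2.71 in females and -2.52, -2.61, -2.61 and -2.53 in males. All 4 males lay above all 4 females, with an SD of 0.06 in females and 0.05 in males. The difference was small at 0.16 (SE 0.063), or 1.11-fold, and did not pass after adjustment (limma adjusted p = 0.168), while the exact permutation p was 0.0286.

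Igf2, the ligand of both receptors and a gene expressed mainly before birth in rodents, read -3.04, -3.14, -3.09 and -3.71 in females and -3.22, -3.67, -3.34 and -4.05 in males. Female 4 stood below the other females, and the sexes overlapped. The difference of -0.33 (SE 0.213, 95% interval -0.81 to 0.16) did not pass, with a limma adjusted p of 0.381. H19, the imprinted noncoding RNA next to Igf2, read -4.09, -3.42, -4.14 and -4.34 in females and -3.68, -4.45, -4.03 and -5.62 in males, and its difference of -0.44 did not pass either (limma adjusted p = 0.536). Male 4 had the lowest value of both genes.

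The binding proteins Igfbp1 to Igfbp5 differed between individual rats by more than between the sexes. Igfbp1, whose product is known as an acute, insulin-suppressed regulator of free IGF-I, read 0.27, 0.03, 0.25 and 0.48 in females and 0.18, 0.18, 0.53 and -0.15 in males. Its highest and its lowest value were both male, and the difference was -0.07 (95% interval -0.42 to 0.28, limma adjusted p = 0.813). Its 250 upstream bases, at chr14:86261027-86261276 on the plus strand of GRCr8, are shown with the forkhead insulin response motif in capitals, which starts at position -121 relative to the annotated start.
Igfbp1: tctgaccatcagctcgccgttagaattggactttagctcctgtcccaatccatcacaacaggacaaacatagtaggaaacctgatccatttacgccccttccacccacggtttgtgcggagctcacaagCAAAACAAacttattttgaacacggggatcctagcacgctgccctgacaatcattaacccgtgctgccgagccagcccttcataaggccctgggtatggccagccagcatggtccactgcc

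Igfbp3 encodes the main carrier of IGFs in serum, where it forms a ternary complex with the acid-labile subunit. It lies next to Igfbp1 on chromosome 14 in the order of protein-coding genes. The females read 3.40, 3.92, 3.30 and 3.78 and the males 3.50, 3.72, 3.81 and 3.39. The males lay inside the range of the females, and the difference was 0.00 (SE 0.159, 95% interval -0.36 to 0.37, limma adjusted p = 0.991).

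Igfbp2 and Igfbp5 are neighbours in the same way on chromosome 9. Igfbp2, a circulating binding protein also made by many tissues, read 0.81, 0.78, 0.99 and 1.15 in females and 1.06, 1.00, 0.90 and 0.59 in males with its brighter probe. The dimmer probe read -0.02, -0.11, 0.20 and 0.30 in females and 0.10, 0.10, 0.12 and -0.35 in males. Both probes put female 4 highest and male 4 lowest, and neither difference passed: -0.05 (95% interval -0.34 to 0.24, limma adjusted p = 0.854) and -0.10 (-0.41 to 0.21, limma adjusted p = 0.693). Igfbp5, which binds extracellular matrix, read -3.07, -3.43, -3.12 and -2.85 in females and -2.57, -3.44, -3.37 and -3.16 in males. Male 1 was the highest rat and male 2 the lowest, and the difference was -0.02 (95% interval -0.49 to 0.44, limma adjusted p = 0.961).

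Igfbp4, an inhibitor of IGF action that PAPP-A cleaves, read 0.87, 0.84, 1.49 and 0.69 in females and 1.16, 0.96, 1.38 and 0.73 in males. The highest and the lowest rat were both female. Its difference was 0.08 (95% interval -0.37 to 0.54, limma adjusted p = 0.833).

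Igfbp6, whose product binds IGF-II with preference, separated rats within a sex more than it separated the sexes. Females 1 and 2 read -2.75 and -2.48, and females 3 and 4 read -5.10 and -4.65. The males read -5.16, -4.44, -5.01 and -4.88. As intensities the first pair of females gave 844 and 904, whereas the other 6 rats gave 164 to 263. On the log2 scale females 3 and 4 lay within the range of the males. The difference between the sexes was -1.13 (SE 0.579, 95% interval -2.45 to 0.20, limma adjusted p = 0.265, exact permutation p = 0.229). It was -0.14 within the first slide row, which holds females 3 and 4, and -2.11 within the second, which holds females 1 and 2, so that these females shared a slide row with males 2 and 3. Repeat spots of the probe differed by at most 0.47 on an array.

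The probe nearest to Igfbp6 over the 8 arrays, looked for after the Igfbp6 values were seen, was that of Abcb1b, a P-glycoprotein drug efflux pump, at a root mean square difference of 0.312. Its values were 0.08 and 0.66 in females 1 and 2, -1.73 and -1.80 in females 3 and 4, and -1.93, -1.98, -1.55 and -1.99 in the males. Slurp1 and Hsf2bp followed at 0.388 and 0.444. Igf1, the ligand of which the kidney is a known target and local source, gave 2.14 and 2.51 in females 1 and 2, 1.32 and 1.20 in females 3 and 4, and 1.17, 1.73, 1.05 and 1.22 in the males. Abcb1b, Slurp1 and Hsf2bp were picked for their likeness to Igfbp6, so that sharing its high pair of females follows from the choice. Igf1 was not picked by this nearness, but it was set beside Igfbp6 with the values of both known. The same pair was its highest, though male 2 (1.73) lay above females 3 and 4. Females 1 and 2 were also the highest rats for Igfbpl1 and Stc2. For Igf1 the sex difference of -0.50 did not pass (SE 0.303, limma adjusted p = 0.345), and its second probe gave -0.49.

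**Figure D4:**
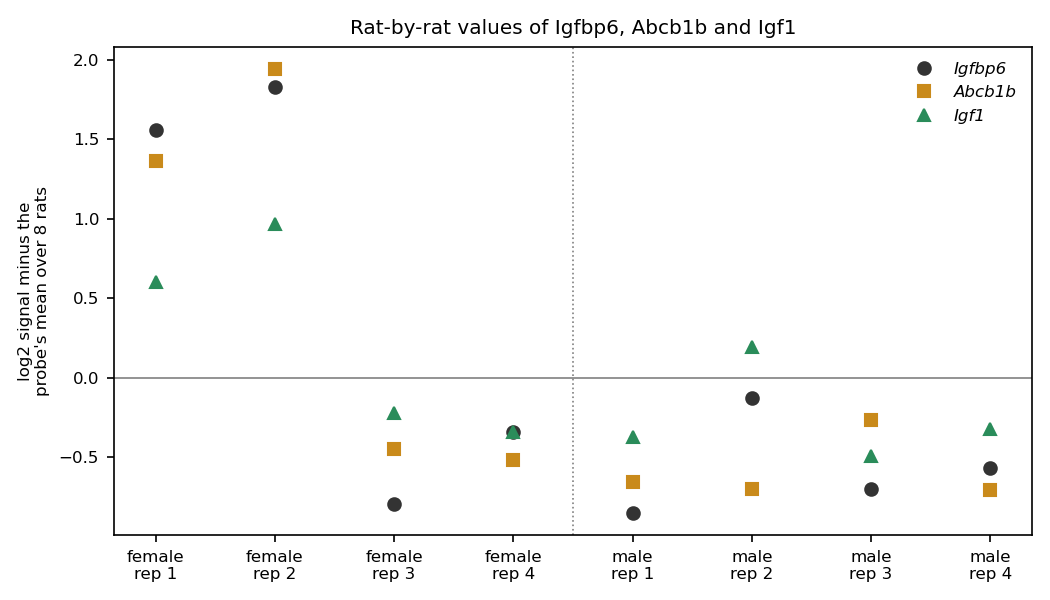
Log2 signal of Igfbp6, Abcb1b and Igf1 on each of the 8 arrays (horizontal axis), centred on the mean of the probe over the 8 rats (vertical axis), with a dotted line between the sexes. Females 1 and 2 are the highest rats for Igfbp6 and for Igf1, and the other 6 lie lower. The same holds for Abcb1b, which was picked for its likeness to Igfbp6.

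The wider IGF axis was followed through a list of 62 further genes, 52 of which had a named probe and 51 a probe well above background on at least 4 arrays. By the brightest probe of each gene, 5 of 51 passed the adjusted p (9.8%), 2 higher in males and 3 higher in females. One of the latter, Stc2, was well above background in females alone, and without it 4 of 50 passed, 2 in either direction. With the filter set to all 8 arrays, 3 were higher in males and 2 in females. Of all 11825 named genes tested in the same way 9.2% passed, 4.32% higher in males and 4.88% higher in females. Past a 2-fold difference as well were 2 of the 51 genes, 3.92%, against 2.12% of the named genes, and 1 of them was Stc2. The other, Socs2, fell to 1.84-fold after normexp. The median difference of the list was -0.04.

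The 5 genes that passed act at different steps of the pathway. Htra1 encodes a secreted serine protease that cleaves IGFBP-5, and it read 0.93, 0.92, 1.12 and 1.13 in females and 1.998, 1.96, 2.02 and 1.88 in males. The males lay well above all females, by 0.94 (SE 0.0778, limma adjusted p = 0.000623). Igfals, the acid-labile subunit that stabilises IGFBP-3 and IGFBP-5 complexes in serum, read -2.41, -2.72, -2.78 and -2.92 in females and -2.04, -2.10, -1.94 and -2.40 in males. The sexes nearly met at female 1 and male 4, and the difference of 0.59 (SE 0.136) passed at a limma adjusted p of 0.0376, though it was lost under 7 of 18 alternatives, where the adjusted p reached 0.0909.

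Stc2, stanniocalcin-2, inhibits the PAPP-A proteases that cleave IGFBP-4. It read -3.59, -3.74, -4.54 and -6.66 in females and was not well above background on any male array, where its measured values were -9.29, -9.38, -9.45 and -8.66. The mean female level was 13.4-fold the dimmest signal well above background on the male arrays. That floor was taken over all probes, so the figure is not a strict lower limit for Stc2. Leaving out single rats moved it between 10.5-fold (without female 1) and 21.4-fold (without female 4). The measured difference after normexp was smaller, at 6.27-fold. The limma adjusted p of 0.00483 rests on male values that were not above background, since the probe was kept for testing through the females alone. Its relative Stc1 did not pass at -0.59 (SE 0.462, limma adjusted p = 0.475). Pappa and Pappa2 had no named probe here.

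Socs2, a feedback inhibitor of growth hormone receptor signalling, read -5.67, -5.44, -5.23 and -5.31 in females and -6.45, -6.71, -6.94 and -6.19 in males. All females lay above all males, and the difference was -1.16 (SE 0.168, limma adjusted p = 0.00622). Eif4ebp1, the translation repressor phosphorylated by mTOR, read 1.35, 1.21, 1.56 and 1.21 in females and 0.93, 0.98, 1.02 and 0.95 in males. It was lower in males by a small step of -0.37 (SE 0.0903, limma adjusted p = 0.0453), which 12 of 18 alternatives did not keep, with an adjusted p of up to 0.0991.

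By role, none of the 3 ligands tested (Igf1, Ins1 and Ins2), none of the 3 receptors and none of the 7 MAP kinase genes passed. The insulin receptor Insr differed by 0.16 (SE 0.0698, limma adjusted p = 0.197) and the insulin receptor-related receptor Insrr by -0.22 (SE 0.175, limma adjusted p = 0.480). In the PI3K, Akt, mTOR and FoxO group 1 of 20 genes passed, and among adaptors and feedback regulators 1 of 12. Of the proteases and their inhibitors 2 of 3 passed (Htra1, and Stc2 with the limit given above), and of the binding protein partners 1 of 2. A further 3 genes of the protease list had no named probe. Groups of this size are too small to be read against the 9.2% of all named genes that passed. Within the MAP kinase group the differences ran from -0.08 to 0.09.

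**Figure D5:**
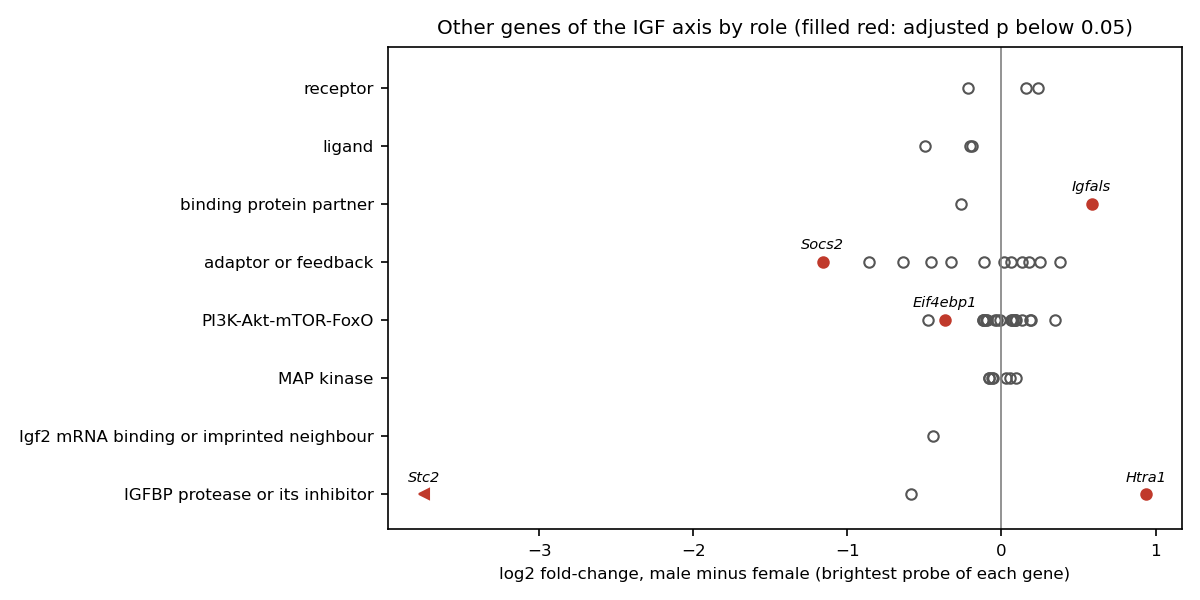
Male minus female difference in log2 signal (horizontal axis) of the brightest tested probe of 51 further IGF axis genes, by role (rows). Filled red marks are past an adjusted p of 0.05. The triangle for Stc2 is drawn from the dimmest signal well above background on the male arrays, since its male values were not well above background. Htra1 and Igfals lie to the right (higher in males), and Stc2, Socs2 and Eif4ebp1 to the left (higher in females).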

How the data were processed

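Total RNA of 4 female and 4 male cortical slices was hybridised to 8 one-colour arrays. The authors deposited scanner output from Feature Extraction 10.7.3.1, and the values used were its processed signal intensity per spot, background-corrected by that software. A deposited table of log2 values, whose sorted values were nearly identical on every array, served as an alternative; per the labels it was made with limma 3.8.2. Its columns and the intensities have no read depth, and precision is limited by 4 arrays per sex. Intensities were log2-transformed and reduced by the array's 75th percentile, outlier spots were left out and spots of a probe averaged. Probes well above background on at least 4 arrays were tested with limma 3.58.1 (R 4.3.3) without covariates, with Benjamini-Hochberg adjustment over 23425 probes; single genes also by an exact permutation test over 70 assignments. Calls used an adjusted p of 0.05, and 2-fold where stated. The fit was tested on simulated data. The labels number the samples as biological replicates. Genes were named through accessions in RefSeq's GRCr8 table, and promoter sequences came from RefSeq. All members, the pathway genes fixed by name (Igf1, Igfals, Insr, Insrr, Pappa, Pappa2, Stc1, Stc2) and those past the threshold are named; H19 and the probes nearest to Igfbp6 were added after their values were seen. For Igfbpl1 the 3 nearest probes of other named genes were taken. The members and lists were chosen with earlier results of these data known. Alternatives were quantile normalization, the authors' log2 values, normexp background correction, other filters and priors, array weights, blocks and leaving out each sample.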

Additional observations from a re-analysis of the deposited data

Results flagged for a closer look

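In 3 of 40 groups of 4 samples, 1 sample stood far from the other 3 relative to the range of its group, where chance gives about 2 (1 in 20). The Igf2 probe read -3.71 in female 4, whereas the other females read -3.14 to -3.04. The dimmer Igfbp2 probe read -0.35 in male 4, with the other males at 0.10 to 0.12. Insrr read -5.38 in female 3, with the other females at -4.81 to -4.79.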

How the results depend on the processing

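Igfbpl1 kept its direction and its call under all 18 alternatives, with differences of -2.93 to -1.74 and adjusted p-values of 0.000396 to 0.00878 (limma). The count of IGF family probes past the adjusted p was 2 rather than 1, and of those higher in males 1 rather than 0, under quantile normalization, the authors' log2 values, normexp, and a trended and robust prior; the added probe was Igf2r, also without female 3. Leaving out each sample gave 1 to 2 and 0 to 1. Among IGF axis genes, 3 rather than 5 passed, and 1 rather than 2 higher in males, with no filter on dim probes, and leaving out each sample gave 3 to 4 and 1 to 2. The count was 6 under quantile normalization, the authors' values, normexp and array weights and 7 with a trended and robust prior, each with 3 higher in males. Leaving out Stc2, chosen after seeing the data, gave 4. Small differences changed sign: Igfbp5 (-0.02) was 0.0146 under quantile normalization, 0.0177 on the authors' values and 0.0087 with array weights, and Igfbp4 (0.08) was -0.0334 with array weights. Leaving out single samples gave -0.211 to 0.0794 for Igfbp5, -0.0229 to 0.259 for Igfbp4, -0.0952 to 0.11 for Igfbp3, -0.187 to 0.042 for Igfbp1, and -0.105 to 0.0516 (brighter probe) and -0.169 to 0.0132 (dimmer probe) for Igfbp2. Other differences that did not pass also moved by over 1.5 times, here with the smallest value: Igf1 (-0.26 without female 2), Igf2 (-0.168 without male 4), Igfbp6 (-0.704 without female 2), Stc1 (-0.28 without male 1) and Insrr (-0.0981 without male 1). Insr rose from 0.16 to 0.24 on the authors' log2 values. The causes were not tested.

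The replicate numbers showed no clear pairing of the samples: deviations of samples with the same number correlated at 0.13, 0.04, -0.01 and 0.12. For female 1 and female 4 the same number correlated best, and for female 2 and female 3 another number did. With a replicate block, 1030 probes passed instead of 1889, 1 IGF family probe still did, and Igfbpl1 had an adjusted p of 0.0081 (limma). Over all probes, 1194 passed with no filter on dim probes and 1012 to 1544 without single samples. The 1889 probes comprised 795 with more signal in males and 1094 with more in females, against 1078 and 901 under quantile normalization and 1072 and 890 on the authors' values. The Stc2 fold rests on the dimmest probes well above background on the male arrays.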
